A study of Mus musculus with 38 samples.

Results

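The 10 immediate early genes described here are Egr1, Nab2, Fos, Jun, Junb, Ier2, Ier3, Dusp1, Myc and Klf6, taken as every probe set annotated to one of those symbols alone on a mouse expression array hybridised with liver RNA. They are 10 of the 18194 genes so annotated, and 15 of their 34958 probe sets: 8 genes had 1 probe set, Jun had 2 and Klf6 had 5. Where a gene had several, the probe set with the highest mean over all arrays stands for the gene, and the others are given beside it. Liver RNA on the 38 arrays was from males of CD-1, an outbred mouse stock, labelled as 6 to 8 weeks old, in 2 experiments that each had control groups. In the conazole experiment mice ate feed with propiconazole at 2500 ppm, feed with triadimefon (spelled tridimefon in the labels) at 1800 ppm, or control feed, for 4 or 30 days, with 3 arrays in each of 6 groups. In the phenobarbital experiment they ate feed with phenobarbital at 850 ppm or control feed for the same times, with 5 arrays in each of 4 groups. The mean daily intake was 349.6 ± 46.7 mg/kg of propiconazole, 257.1 ± 33.5 mg/kg of triadimefon and 97.2 ± 5.9 mg/kg of phenobarbital, as the submitters give it without naming the error. Propiconazole and triadimefon are triazole fungicides, and phenobarbital is a barbiturate used as the standard inducer of drug-metabolising enzymes in liver; the series set out to tell conazoles that cause liver tumours in mice from phenobarbital by their liver transcripts. Arrays of a group are labelled as biological replicates, without saying whether each is 1 animal, so p-values measure the spread between these arrays.

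Immediate early genes are transcribed within minutes of a stimulus such as a growth factor, a stress or a hormone, without new protein synthesis, and most of their transcripts are short-lived. Serum response factor with ETS partners, and CREB, switch them on downstream of MAP kinases, and several products feed back on the pathway. In liver they are known for their surge after partial hepatectomy, feeding, stress and handling of the animal, and for low levels in the resting organ. Among the members, Egr1 is a zinc finger activator and Nab2 is the corepressor that EGR proteins both induce and are held back by. Fos, Jun and Junb are subunits of the transcription factor AP-1, Dusp1 is a phosphatase that inactivates MAP kinases, and Myc drives growth and ribosome production. Klf6 is a zinc finger factor, Ier2 encodes a small nuclear protein, and Ier3 encodes a protein linked to cell survival.

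Promoters were listed for 7 of the 10 members in the RefSeq table (build GRCm38.p6, 250 bases before and 50 after the start of the gene, printed 5′ to 3′ on the gene's own strand). The 4 shown belong to genes whose transcripts the results turn on: Nab2 (chr10:127666654-127666953, minus strand) and Junb (chr8:84978699-84978998, minus strand), which were lower after the conazoles at day 4, and Jun (chr4:95052173-95052472, minus strand) and Klf6 (chr13:5861239-5861538, plus strand), which were higher by value at day 30. Capitals mark exact matches on either strand to the motifs searched.
Nab2: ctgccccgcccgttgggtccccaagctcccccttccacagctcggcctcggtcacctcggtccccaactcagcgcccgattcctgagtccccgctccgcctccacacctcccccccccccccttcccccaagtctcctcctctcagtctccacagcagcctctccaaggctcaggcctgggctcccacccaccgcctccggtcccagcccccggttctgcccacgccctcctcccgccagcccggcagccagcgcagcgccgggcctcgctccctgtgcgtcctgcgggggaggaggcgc
Junb: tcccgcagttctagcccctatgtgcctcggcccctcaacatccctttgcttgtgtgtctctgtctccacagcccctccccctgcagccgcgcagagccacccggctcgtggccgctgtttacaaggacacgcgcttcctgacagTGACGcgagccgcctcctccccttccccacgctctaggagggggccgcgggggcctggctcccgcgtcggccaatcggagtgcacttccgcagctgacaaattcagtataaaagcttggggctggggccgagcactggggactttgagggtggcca
Jun: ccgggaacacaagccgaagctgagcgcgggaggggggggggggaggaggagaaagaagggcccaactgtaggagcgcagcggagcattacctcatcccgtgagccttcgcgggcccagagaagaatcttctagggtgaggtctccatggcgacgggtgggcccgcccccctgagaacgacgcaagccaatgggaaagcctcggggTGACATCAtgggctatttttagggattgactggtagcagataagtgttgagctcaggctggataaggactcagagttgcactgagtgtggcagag
Klf6: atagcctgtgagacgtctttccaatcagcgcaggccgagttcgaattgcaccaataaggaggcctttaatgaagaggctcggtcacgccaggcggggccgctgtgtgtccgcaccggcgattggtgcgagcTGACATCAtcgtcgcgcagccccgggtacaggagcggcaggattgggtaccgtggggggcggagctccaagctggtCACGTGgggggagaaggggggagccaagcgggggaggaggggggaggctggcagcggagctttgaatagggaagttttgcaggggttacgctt
The motifs were the CREB site TGACGTCA and its 5-base core TGACG, the AP-1 site TGACTCA, the form TGACATCA that Jun-containing dimers are known to bind in the Jun promoter, the EGR sites GCGGGGGCG and GCGTGGGCG, the ETS site CCGGAAGT, the E-box CACGTG and the CArG box of serum response factor, named only. A full CREB site also holds its core, and the others do not overlap by their letters. The Junb window held TGACG from -106 to -102, and 20.8% of the 32851 promoters in the table held it. The Jun window held TGACATCA from -45 to -38 and the Klf6 window held it from -119 to -112, against 3.62% of all promoters. Klf6 also held the E-box from -43 to -38, against 7.15%, and the Nab2 window, with 74.0% G and C against a median of 52.7%, held none of the motifs. Among the promoters not shown, Fos held TGACG at -129 and -66, Dusp1 held the full CREB site at -143 (1.79% of all promoters), the core alone at -191 and an E-box at -126, and Ier3 held none. A match describes the letters in the window and was not tested against the expression values.

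Values are log2(intensity + 16) after quantile normalization, with intensities under 0 set to 0, so that 4 is the lowest possible value. The 39 olfactory receptor genes on the array, which liver is not expected to express, gave a background of 6.13 on this scale (the 95th percentile of their means). A gene is said to have changed where limma's moderated test, fitted on all arrays and 17729 genes with Benjamini-Hochberg adjustment, gave an adjusted p under 0.05. The 7 hepatocyte markers measured were above background in every group. Array medians before normalization ran from 12.5 to 36.1. Propiconazole day 4 replicate 2 stood apart: the Gapdh 3′ probe set was 6.39 log2 units above the 5′ one there, where the remaining arrays gave -0.37 to 0.22, and its mean correlation with its own group was 0.818. Calls of that group that are lost without it are named beside their values. The Actb 3′ excess was also higher on the conazole arrays of day 4 than elsewhere, at 0.80 to 1.30 in the controls, 0.76 to 0.94 with triadimefon and 0.62 to 1.84 with propiconazole, against 0.28 to 0.47 in all other groups. Its part in the day 4 results was not tested.

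**Figure D1:**
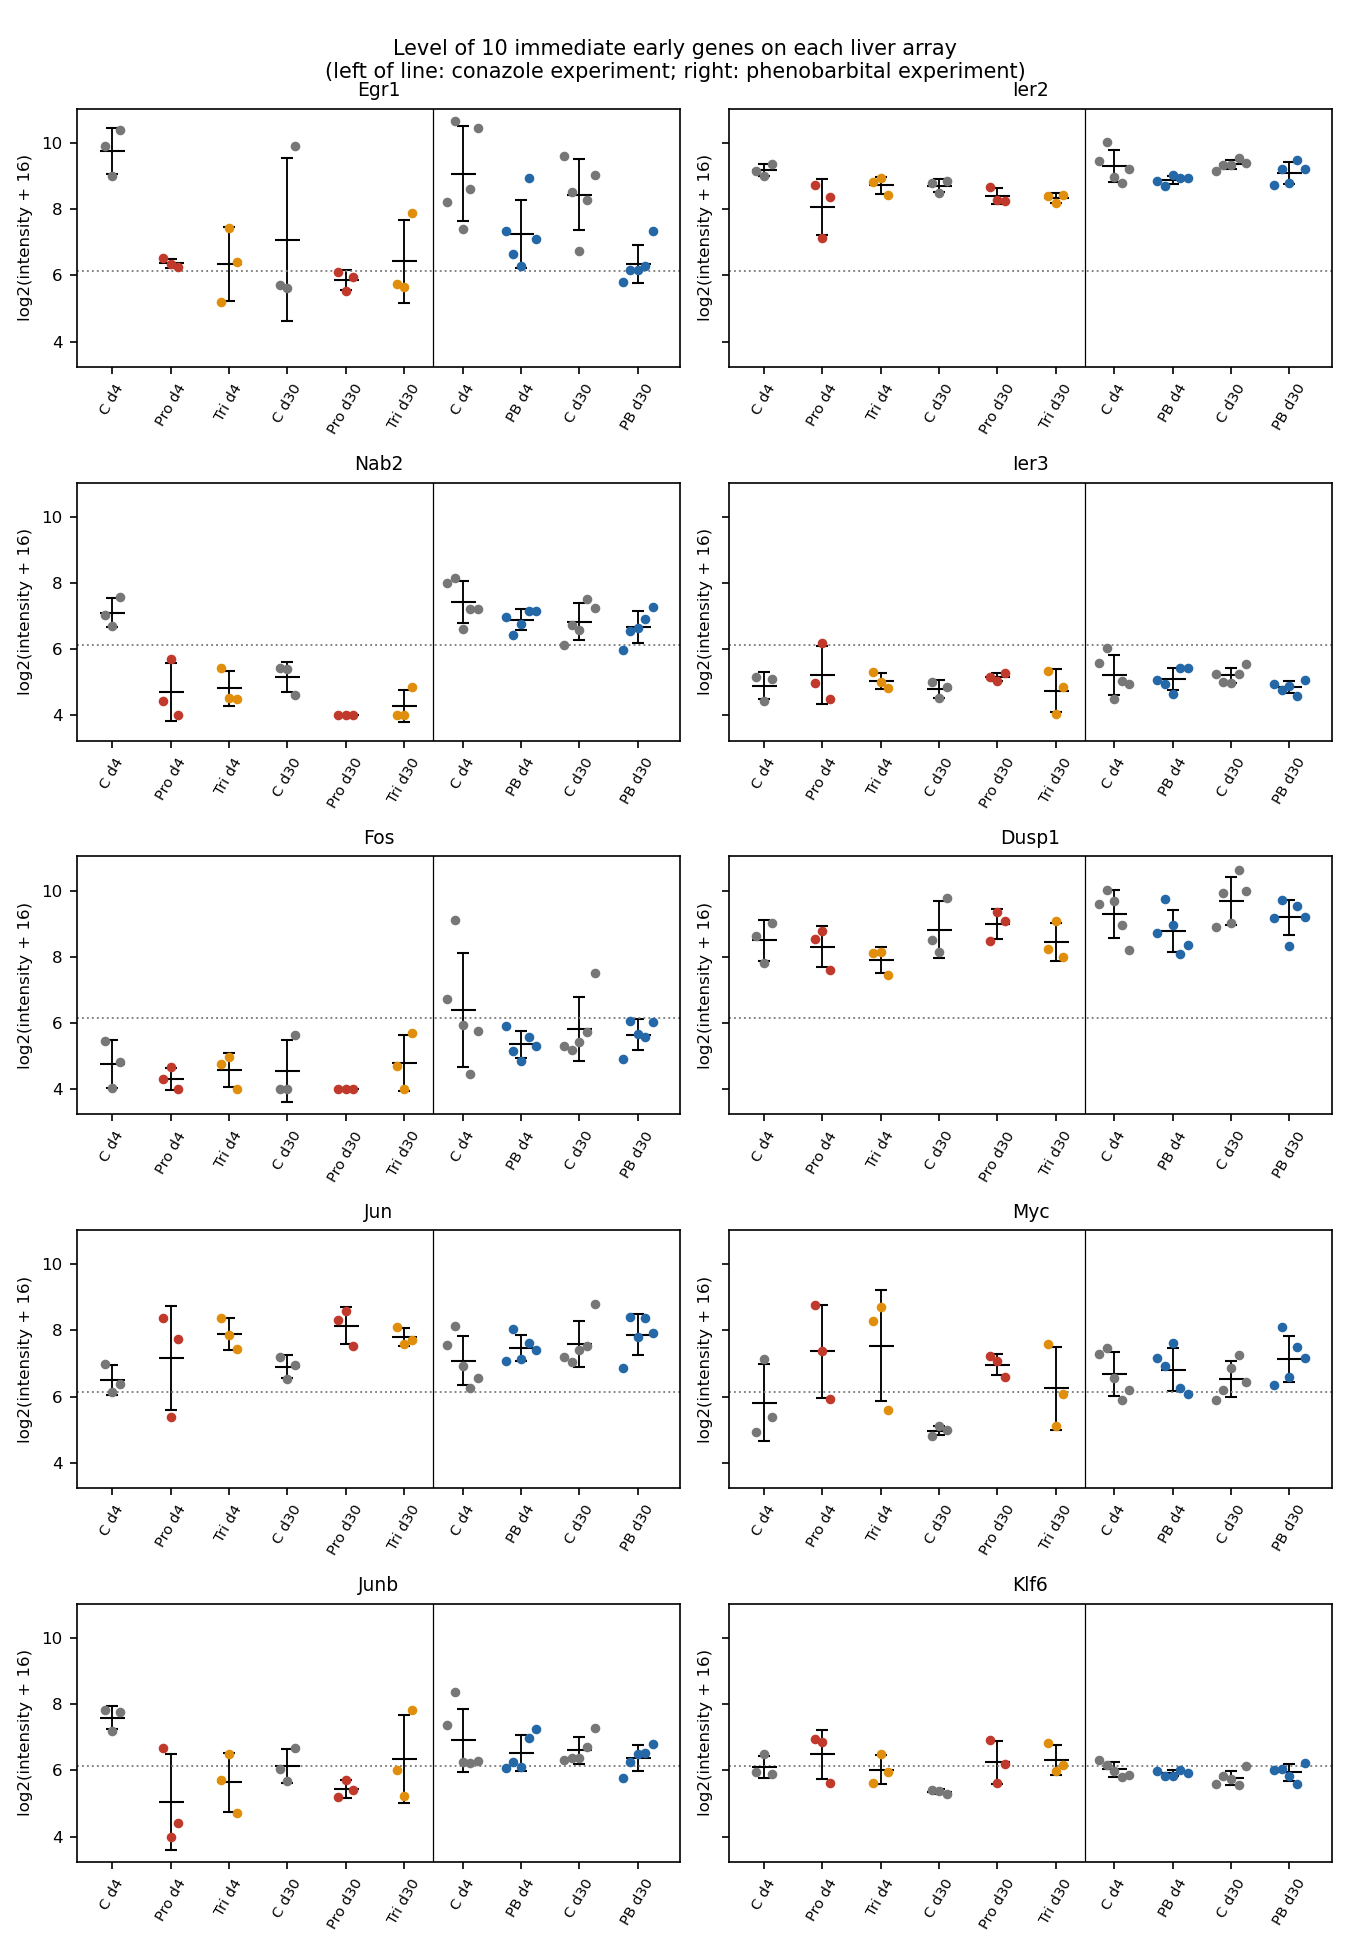
Level of each gene on each array, as log2(intensity + 16), by group (C, control feed; Pro, propiconazole; Tri, triadimefon; PB, phenobarbital; d4 and d30, days of feeding). Points are arrays, bars are the mean and SD, the vertical line separates the experiments, and the dotted line is the background of 6.13; Egr1 in the conazole experiment runs from 9.01 to 10.38 in day 4 controls and from 5.20 to 7.43 in the treated groups of that day.

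Egr1 and its corepressor Nab2 fell together after 4 days of either conazole, and these were the only members that fell with both compounds. Egr1 was 9.92, 9.01 and 10.38 on the 3 control arrays of day 4, 6.52, 6.35 and 6.25 with propiconazole, and 5.20, 7.43 and 6.40 with triadimefon. Every treated array lay below every control array, and the lowest triadimefon array was below background. The change was -3.39 ± 0.90 (SE, n = 3 against 3) with propiconazole and -3.42 ± 0.90 with triadimefon, or 10.5-fold and 10.7-fold lower on the scale of intensity + 16, with limma adjusted p of 0.012 and 0.028. Nab2 was 7.02, 6.70 and 7.58 in the controls, 4.42, 5.69 and 4.00 with propiconazole, and 5.43, 4.53 and 4.48 with triadimefon. All 6 treated arrays were below background, so the fall can only be given as at least 1.96-fold in each case, the control mean over the background; the fitted changes were -2.40 ± 0.41 (limma adjusted p 0.00035) and -2.29 ± 0.41 (limma adjusted p 0.0018). Both conazole comparisons use the same 3 control arrays. In whole liver RNA, fewer cells of a type and less RNA per cell cannot be told apart.

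Junb and Ier2 fell with propiconazole at day 4, and with triadimefon they were lower by value without passing the test. Junb was 7.83, 7.19 and 7.76 in the controls, 6.69, 4.00 and 4.42 with propiconazole, and 5.71, 6.49 and 4.72 with triadimefon. No treated array reached the lowest control, and only 1 array of each treated group was above background. Junb fell by 2.56 ± 0.60 with propiconazole (limma adjusted p 0.0049), and its change of -1.95 ± 0.60 with triadimefon missed the threshold (limma adjusted p 0.061). Ier2, which was above background on all 38 arrays, was 9.16, 9.01 and 9.37 in the controls and 8.74, 7.13 and 8.36 with propiconazole. It fell by 1.10 ± 0.27 (limma adjusted p 0.0069), or 2.15-fold, but the array with the 3′ excess was the lowest. With triadimefon it was 8.81, 8.93 and 8.44, all below the controls, for a change of -0.45 ± 0.27 (limma adjusted p 0.40).

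At day 4, 4 of the 10 members had therefore fallen with propiconazole and none had risen, against 6.53% of all genes called lower and 13.9% called in either direction. These 4 were also the members whose treated arrays all lay below the controls, which held for 6.85% of all genes. With triadimefon 2 of 10 had fallen and none had risen, against 1.65% called lower and 3.75% called in either direction. The same 4 genes lay wholly below the controls there, against 8.9% of all genes. The median change was -0.32 over the members with each compound, against 0.03 and 0.00 over all genes tested. Of all called genes, 53.0% were higher with propiconazole and 56.1% with triadimefon, but 8.65% and 93.3% with intensities as deposited, and 67.2% with triadimefon under median scaling. Without propiconazole day 4 replicate 2 in the fit, 4 members were still called with propiconazole, against 9.41% of all genes. Egr1 (-3.38, limma adjusted p 0.035), Nab2 (-2.89, 9.7e-05) and Junb (-2.04, 0.044) were lower. Jun was called higher (1.56, limma adjusted p 0.042), and Ier2 was no longer called (-0.63, 0.095). Junb with triadimefon was called without that array (limma adjusted p 0.037). A fit on the 6 arrays compared alone called no member at day 4 with either compound, and array weights left 1 call with each.

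**Figure D2:**
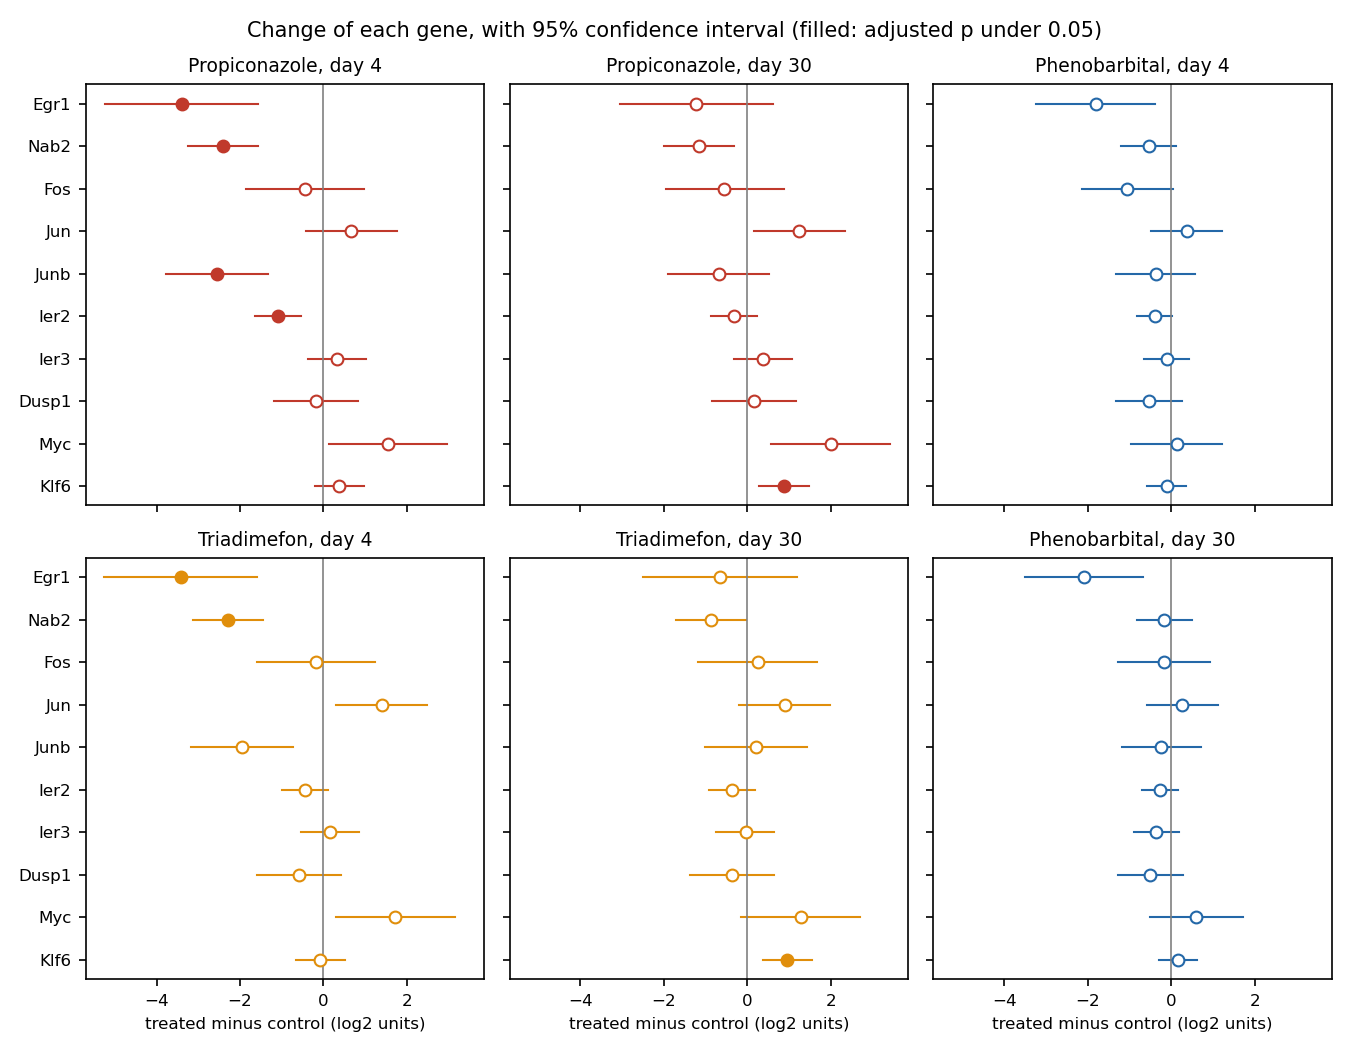
Treated minus control for each gene, in log2 units, in the 6 comparisons, with the 95% confidence interval of the limma fit as a line. Filled points have an adjusted p under 0.05: Egr1, Nab2, Junb and Ier2 with propiconazole at day 4, Egr1 and Nab2 with triadimefon at day 4, and Klf6 with each conazole at day 30.

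By day 30 the control arrays of the conazole experiment no longer stood above the treated ones for Egr1. The 3 controls were 5.71, 5.61 and 9.92, the propiconazole arrays 6.10, 5.54 and 5.95, and the triadimefon arrays 5.75, 5.64 and 7.88. A single control array was above background, and the other two lay within the range of the treated arrays. The changes, -1.22 ± 0.90 with propiconazole and -0.66 ± 0.90 with triadimefon, did not pass the test (limma adjusted p 0.45 and 0.79). Nab2 was 5.44, 5.40 and 4.62 in these controls, 4.00 on all 3 propiconazole arrays and 4.00, 4.00 and 4.85 with triadimefon. All 9 arrays were below background, so no fold is given; the fitted change with propiconazole was -1.16 ± 0.41 (limma adjusted p 0.069, and 0.036 without propiconazole day 4 replicate 2).

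The level of the controls themselves differed between days in the conazole experiment. Nab2 fell by 1.95 ± 0.41 from day 4 to day 30 in control feed (limma adjusted p 0.0041), at least 1.96-fold, the only member called there against 5.32% of all genes. Egr1 was lower by value (-2.69 ± 0.90, limma adjusted p 0.074), and without the high day 30 control, replicate 3, the difference was -4.11 and called (limma adjusted p 0.0028). Junb was 6.03, 5.68 and 6.68 in the day 30 controls, all below the day 4 controls, with a change of -1.47 ± 0.60 (limma adjusted p 0.16). In all, 4 of 10 members had day 30 controls wholly below the day 4 controls, against 10.9% of all genes. In the phenobarbital experiment 0 members and 0% of all genes were called between control days by limma, with 0 members and 668 genes at an unadjusted p under 0.05, and the differences were -0.64 ± 0.70 for Egr1 and -0.60 ± 0.32 for Nab2. Day of feeding, age of the mice at sampling and any handling of the arrays by day cannot be told apart. Of all 10 groups, Egr1 (9.77 ± 0.70, SD, n = 3) and Junb (7.59 ± 0.35, SD, n = 3) had their highest mean in the conazole controls of day 4. The phenobarbital controls of that day came next, at 9.07 ± 1.43 and 6.90 ± 0.96 (SD, n = 5), and Nab2 was highest there, at 7.43 ± 0.63 against 7.10 ± 0.45 in the conazole controls.

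Whether the day 4 and day 30 responses differed was tested as a difference of changes, and no member passed. Egr1 changed by 2.18 ± 1.27 less far at day 30 than at day 4 with propiconazole (95% interval -0.42 to 4.77, limma adjusted p 0.41) and by 2.77 ± 1.27 less with triadimefon (0.17 to 5.36, limma adjusted p 0.31). The same difference for Nab2 was 1.24 ± 0.58 and 1.41 ± 0.58 (limma adjusted p 0.28 and 0.24), though its day 30 levels lay under the background. In these tests 1.95% and 1.31% of all genes were called, and in that for phenobarbital 0.00564%.

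Jun was higher by value with the conazoles, where Egr1, Nab2 and Junb were lower or level. Its chosen probe set was 7.0, 6.13 and 6.38 in day 4 controls, 8.38, 5.38 and 7.75 with propiconazole, and 8.38, 7.85 and 7.44 with triadimefon. At day 30 it was 7.21, 6.53 and 6.96 in controls, 8.33, 8.58 and 7.53 with propiconazole, and 8.11, 7.58 and 7.71 with triadimefon. Apart from the array with the 3′ excess, every conazole array lay above the controls of its day. The changes were 0.67 ± 0.54, 1.39 ± 0.54, 1.24 ± 0.54 and 0.90 ± 0.54, and limma's adjusted p ran from 0.14 to 0.45. The gene had a second probe set, tested on its own among 33618 probe sets in a fit added after the data were seen. It was 6.89, 6.79 and 6.37 in day 4 controls and 7.54, 7.83 and 7.22 with propiconazole, and 6.56, 6.50 and 6.65 in day 30 controls and 7.89, 8.06 and 7.74 with propiconazole. There the rise passed the test on both days, at 0.85 ± 0.27 (limma adjusted p 0.040) and 1.33 ± 0.27 (limma adjusted p 0.0020). The array with the 3′ excess was the lowest of its group by the first probe set and the highest by the second. With triadimefon the second probe set gave 0.43 ± 0.27 and 0.42 ± 0.27 (limma adjusted p 0.45 and 0.48), below the first probe set's values of 1.39 and 0.90.

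**Figure D3:**
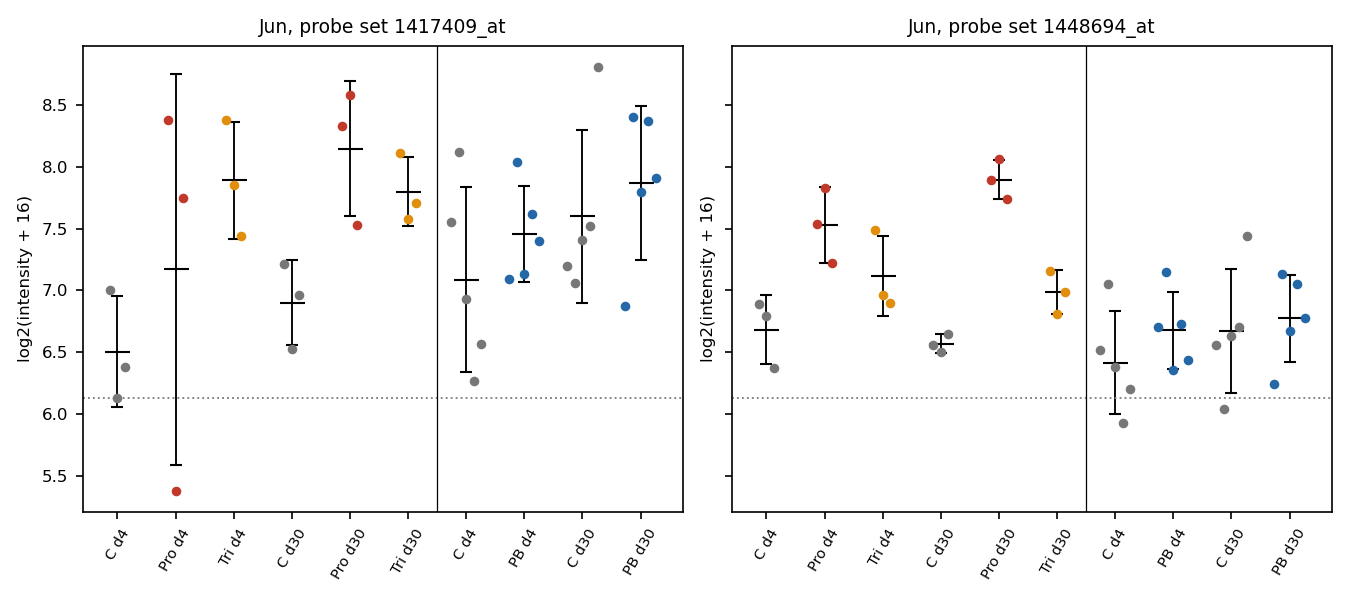
Level of Jun on each array by each of its 2 probe sets, as log2(intensity + 16), by group as named above, with the mean and SD as bars and the background dotted. Propiconazole day 4 replicate 2 is at 5.38 in the left panel and 7.83 in the right panel, and by the second probe set the propiconazole arrays of day 30, 7.74 to 8.06, lie above the 6.50 to 6.65 of their controls.

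Myc was higher by value with both conazoles on both days, and no change passed the test. It was 4.94, 7.13 and 5.39 in day 4 controls, 8.77, 7.39 and 5.94 with propiconazole, and 8.28, 8.71 and 5.61 with triadimefon. These groups overlapped, through a high control and a low array in each treated group. At day 30 the controls were 4.82, 5.10 and 4.99, all below background, and the propiconazole arrays 7.22, 7.09 and 6.60, all above it. That change, 2.0 ± 0.70 and at least 1.79-fold, had a limma adjusted p of 0.062, and it was called at a pseudocount of 4 (0.037), among genes above background alone (0.043) and in a fit on the 6 arrays compared (0.035). With triadimefon the day 30 arrays were 7.58, 5.10 and 6.08, and the change was 1.28 ± 0.70 (limma adjusted p 0.32).

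Klf6 was the only member called at day 30 with any compound, and it was called with both conazoles. It was 5.41, 5.38 and 5.29 in the controls, 6.91, 5.63 and 6.19 with propiconazole, and 6.82, 5.97 and 6.16 with triadimefon. No treated array overlapped the controls, but all controls and 1 array of each treated group were below background. The rise was 0.88 ± 0.29 with propiconazole (limma adjusted p 0.046), at least 1.08-fold, and 0.96 ± 0.29 with triadimefon (limma adjusted p 0.047), at least 1.14-fold. This 1 of 10 members compares with 5.29% of all genes called higher and 10.8% in either direction with propiconazole, and 2.41% and 5.40% with triadimefon. Treated arrays lay wholly above the controls at day 30 for 4 members with propiconazole (Jun, Ier3, Myc and Klf6), against 11.9% of all genes, and for 3 with triadimefon (Jun, Myc and Klf6), against 9.27%. Ier3 was below background on all these arrays. Myc with triadimefon was above only before rounding, at 5.10 against 5.10, both below background. Nab2 with propiconazole, below background, and Ier2 with triadimefon (8.18 to 8.43 against 8.49 to 8.84) lay wholly below the controls. The calls ended under 13 of 17 alternatives with propiconazole and 12 of 17 with triadimefon, among them intensities as deposited, median scaling and a pseudocount of 64. Of the 5 Klf6 probe sets, 4 were higher by value in each of these comparisons, and none was called when each was tested on its own (limma adjusted p 0.053 and 0.056 for the chosen one). At day 4 Klf6 changed by 0.38 ± 0.29 and -0.08 ± 0.29, the second turning to 0.14 under another scaling.

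Fos, the classical partner of Jun, was not measurable in the conazole experiment: all 18 of its arrays were below background, from 4.00 to 5.68. Ier3 was above background on 1 of 38 arrays, at 6.20 on propiconazole day 4 replicate 2. Its changes ran from -0.36 to 0.37. Dusp1 was above background on every array, between 7.46 and 10.62, and passed no test: its 6 changes ran from -0.58 to 0.16, with limma adjusted p of 0.60 or more. Its conazole controls were 8.64, 7.81 and 9.02 at day 4 and 8.50, 8.15 and 9.78 at day 30, overlapping the treated arrays on both days.

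Phenobarbital changed no member by the test at either day, against 0.677% of all genes called at day 4 and 0.479% at day 30. At an unadjusted p under 0.05 there was 1 member of 10 each day, Egr1, against 9.64% and 6.69% of all genes. Its 5 control arrays at day 4 ran from 7.40 through a median of 8.61 to 10.68 (8.22, 10.68, 7.40, 8.61 and 10.45 by replicate), and its phenobarbital arrays were 7.33, 6.65, 6.27, 8.95 and 7.10. At day 30 the controls were 9.60, 8.52, 6.74, 8.28 and 9.02, and the phenobarbital arrays 5.79, 6.16, 6.16, 6.27 and 7.33. On each day 4 of 5 phenobarbital arrays were below every control and 1 was within their range. The changes, -1.81 ± 0.70 and -2.09 ± 0.70 (3.51-fold and 4.25-fold lower on the scale of intensity + 16), had unadjusted p of 0.014 and 0.0053 and a limma adjusted p of 0.32 on both days. With array weights the day 30 change was called (limma adjusted p 0.036). Over the 3 compounds and both days, Egr1 was lower by value in 6 of 6 comparisons under each of 4 scalings, and 21 of 22 treated arrays lay below their control mean. These are not separate results, as the conazoles share controls on each day. The day 30 conazole control mean was raised by 1 array at 9.92. On that day 1 of 3 propiconazole and 0 of 3 triadimefon arrays lay below every control.

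Nab2 was above background on 18 of 20 arrays of the phenobarbital experiment, and its change did not pass the test there on either day. It was 7.99, 8.14, 6.61, 7.21 and 7.20 in day 4 controls and 6.96, 6.42, 6.75, 7.16 and 7.16 with phenobarbital, a change of -0.54 ± 0.32 (95% interval -1.19 to 0.11, limma adjusted p 0.66). At day 30 the controls were 6.11, 6.72, 6.57, 7.53 and 7.24 and the phenobarbital arrays 5.98, 6.55, 6.65, 6.92 and 7.28, a change of -0.16 ± 0.32 (-0.81 to 0.49). Over all compounds and days Nab2 was lower by value in 6 of 6 comparisons under each of the 4 scalings. Of 22 treated arrays, 20 lay below their control mean. The conazoles share controls on each day in these counts, and their treated arrays were below background. The difference between the propiconazole and phenobarbital changes of Nab2 at day 4 was -1.86 ± 0.52 (limma adjusted p 0.060), and that between triadimefon and phenobarbital -1.75 ± 0.52 (limma adjusted p 0.18); the conazole levels in both were below background. For Egr1 these differences were -1.58 ± 1.14 and -1.61 ± 1.14, with limma adjusted p of 0.49 and 0.67. No member passed any of the 4 tests of a conazole change against a phenobarbital change, where 1.83% and 1.92% of all genes were called for propiconazole and 0.0451% and 0.451% for triadimefon, at day 4 and day 30.

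The other members did not pass the test in the phenobarbital experiment either. Fos was above background on 3 of 20 arrays, all in controls: 6.71 and 9.11 at day 4 and 7.51 at day 30. Its phenobarbital arrays were 5.90, 5.16, 4.84, 5.56 and 5.29 at day 4 and 4.92, 6.07, 5.66, 5.56 and 6.02 at day 30. Junb controls were 7.37, 8.38, 6.26, 6.23 and 6.28 at day 4, against 6.07, 6.26, 6.09, 6.97 and 7.26 with phenobarbital, a change of -0.37 ± 0.46. Ier2 changed by -0.39 ± 0.21 and -0.26 ± 0.21, and over all compounds and days it was lower by value in 6 of 6 comparisons. Jun changed by 0.37 ± 0.42 and 0.27 ± 0.42 and Myc by 0.13 ± 0.54 and 0.60 ± 0.54, and over all compounds and days both were higher by value in 6 of 6 comparisons under each of the 4 scalings. The limma adjusted p of these members was 0.55 or more. As for Egr1, the conazole comparisons in the counts of 6 share controls on each day.

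Propiconazole is a dioxolane and triadimefon a ketone, with a triazole ring in both, and their dietary doses and intakes differed. Set side by side, their day 4 changes were -3.39 and -3.42 for Egr1, -2.40 and -2.29 for Nab2, where no treated array was above background, -2.56 and -1.95 for Junb, 1.54 and 1.72 for Myc, and 0.67 and 1.39 for Jun. At day 30 they were 2.0 and 1.28 for Myc, 1.24 and 0.90 for Jun, 0.88 and 0.96 for Klf6, and -0.69 and 0.21 for Junb. No member passed the test between the treated groups on either day, where 1.84% and 3.90% of all genes were called. The intervals were wide: the difference at day 4 was 0.03 (95% interval -1.80 to 1.87) for Egr1 and -0.60 (-1.82 to 0.62) for Junb, which was above background on 1 array of each group. For Nab2, below background on all 6 arrays, the difference between the compounds could not be measured. Ier2 had the lowest adjusted p, with a difference of -0.65 (-1.20 to -0.10, limma adjusted p 0.18).

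Most of these genes varied widely between arrays of a group. The residual SD of Egr1 over the 10 groups was 1.15 log2 units, wider than that of 99.7% of the genes above background, against a median of 0.23 over those genes. Myc (0.89), Fos (0.89), Junb (0.76), Jun (0.69) and Dusp1 (0.63) lay at the 99.1th, 99th, 98.3th, 97.2th and 96.3th percentiles. Nab2 (0.52) was at the 92.6th and Ier3 (0.43) at the 86.8th, while Klf6 (0.36) and Ier2 (0.34) were at the 79th and 77th. The standard error of 0.70 on the Egr1 changes with phenobarbital comes from this spread. Percentiles are among genes above background, also for the members whose own mean was below it. At a pseudocount of 64, Ier3, above background on 1 array, was at the 49.2th percentile and Klf6 at the 63.9th.

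**Figure D4:**
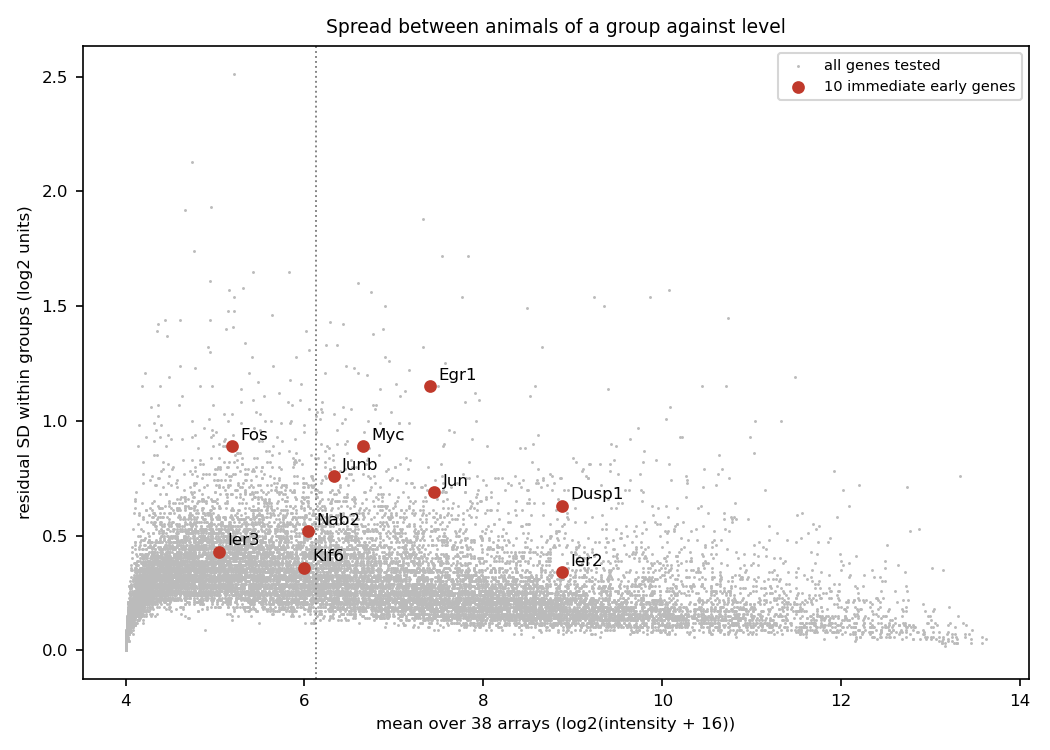
Residual SD within groups against the mean over 38 arrays, both on the log2(intensity + 16) scale, for the 17729 genes tested (grey) and the 10 immediate early genes (red), with the background dotted. Egr1 has the widest spread of the 10, 1.15, and Ier2 the narrowest, 0.34.

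Several members varied together from array to array within a group. The median Pearson r of the deviations from the group mean was 0.28 over the 45 member pairs, against 0.00 over all pairs of genes above background, whose 95th percentile was 0.48. Among the pairs, 9 exceeded 0.5 and 1 was below 0. The experiments differed in this by value: within the conazole experiment the median was 0.12 and 11 pairs were below 0, among them Nab2 with Jun and with Ier2 (-0.44 each), and within the phenobarbital experiment the median was 0.47 and 2 pairs were below 0. Without the array with the 3′ excess the median over all arrays was 0.33, and Nab2 with Ier2 went from 0.15 to 0.43 and Ier2 with Ier3 from 0.01 to 0.30. These correlations are over 38 arrays that share normalization and RNA handling, and they are given as a description. Jun and Ier2 had r = 0.77 (Spearman's rho 0.63), Junb and Ier2 0.68 (0.61), Fos and Junb 0.66 (0.69), and Jun and Junb 0.62 (0.60). Without the 2 arrays farthest from the median, r was 0.74 for Jun and Ier2, 0.54 for Junb and Ier2, 0.59 for Fos and Junb and 0.57 for Jun and Junb. Fos and Junb were at 0.60 within the conazole experiment and 0.81 within the phenobarbital experiment. Fos was below background on all 18 conazole arrays and above it on 3 of 20 in the other experiment. Correlations with Fos are thus mostly of signal under the background. Egr1 went with Fos (0.53) and Junb (0.48), but not with Nab2: that pair, which fell together at day 4, had r = 0.11, with -0.18 in the conazole and 0.38 in the phenobarbital experiment.

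Some arrays were high for many members at once. Replicate 2 of the day 4 phenobarbital controls was the highest of its 5 for 9 of the 10 members, with Egr1 at 10.68, Fos at 9.11, Junb at 8.38, Ier2 at 10.02 and Dusp1 at 10.03. Replicate 5 of the day 30 phenobarbital controls was the highest for 5 members, Fos, Jun, Junb, Ier3 and Klf6. In the day 30 conazole controls replicate 3, the array with Egr1 at 9.92, was also the highest for Fos, Junb, Ier2 and Dusp1. Fos was below background on that array. On triadimefon day 30 replicate 3, Egr1 at 7.88 and Junb at 7.81 were the highest of that group.

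**Figure D5:**
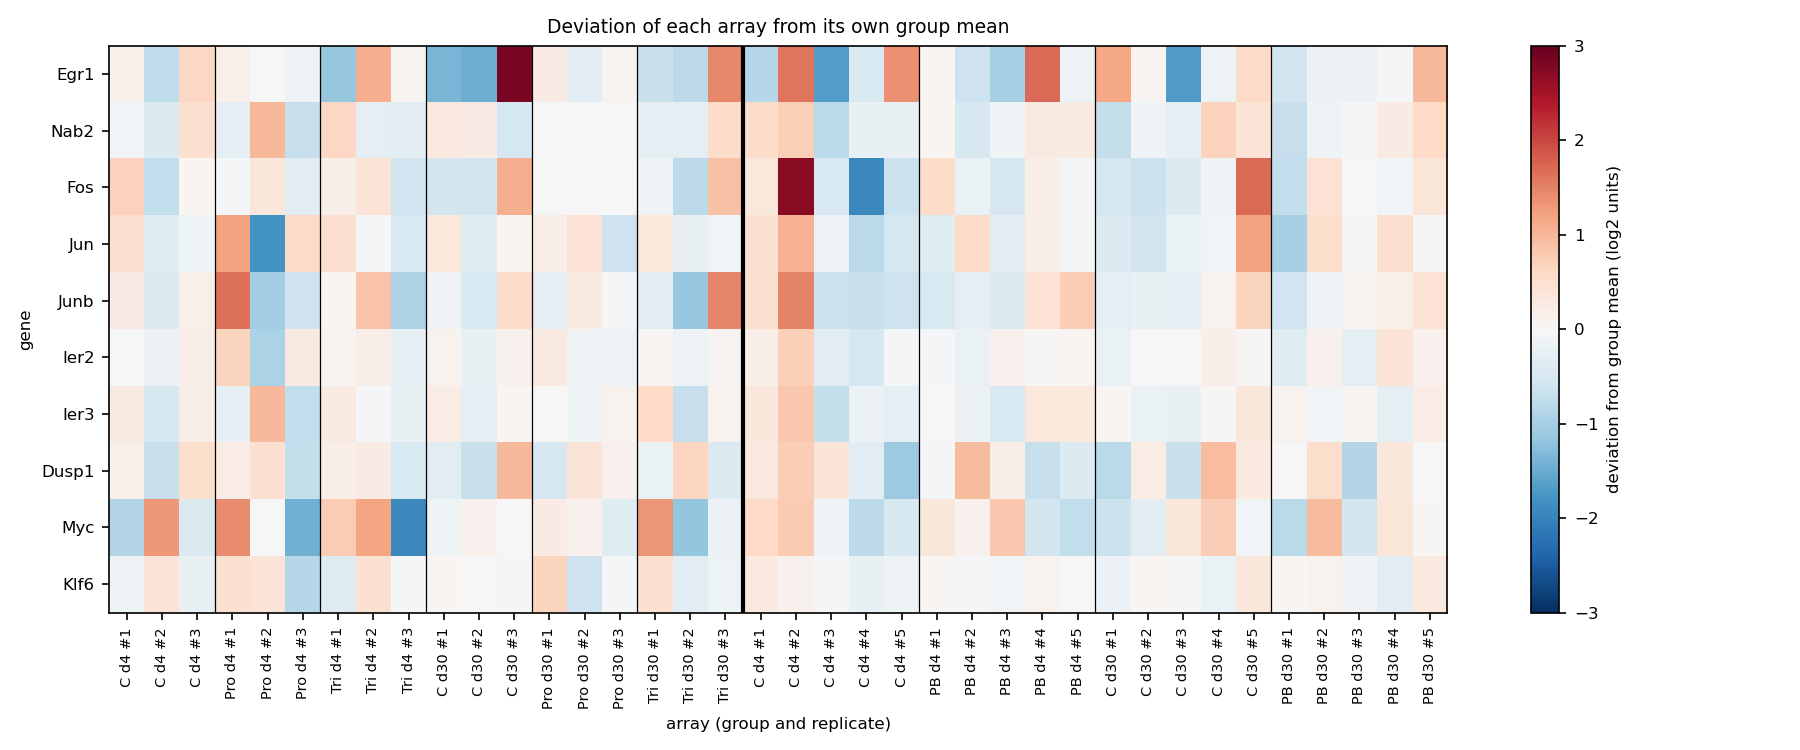
Deviation of each array from its own group mean, in log2 units (colour), for each gene (rows) on each of the 38 arrays (columns, labelled by group and replicate); thin lines separate groups and the thick line the experiments. Replicate 2 of the day 4 phenobarbital controls lies above its group mean in all 10 rows, and replicate 3 of the day 30 conazole controls is red for Egr1, Fos, Junb and Dusp1.

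The genes whose deviations were most like those of Egr1, among 8629 candidates above background over the 38 arrays, were Brip1os, Pim1 and Rnf186 (r = 0.60 each), Cdh5 and Zfp36 (0.57 each). Pim1 encodes a short-lived kinase and Zfp36 a protein that speeds decay of AU-rich transcripts. For Fos they were Il1b (0.79), the cytokine interleukin-1 beta, then Chic2 (0.75), Junb and Btg2 (0.66 each) and Klf10 (0.61). Fos itself was above background on 3 of the 38 arrays, all controls of the phenobarbital experiment. Those most like Junb were Gprin3 (0.74), Mcl1 (0.73), Atg16l2, Rell1 and Zfp36 (0.69 each). Without the 2 arrays farthest from the median, Il1b and Fos kept r = 0.63.

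Of a further 44 immediate early genes, 42 were measured. With propiconazole at day 4, 3 rose and 4 fell, or 16.7% against 13.9% of all genes. Atf3, a stress-induced AP-1 family member, was below background in the controls (mean 4.36) and at 6.60 with propiconazole, at least 1.38-fold higher (limma adjusted p 0.00065). Cebpd rose by 1.20 and Nr4a2 by 0.95, while Id1 fell by 1.74, Pim1 by 1.62, Id2 by 1.46 and Klf10 by 1.37. Without replicate 2 of that group, Cebpd and Id1 were no longer called. With triadimefon at day 4, 0 rose and 4 fell, or 9.52% against 3.75% of all genes: Klf10 by 1.65, Pim1 by 1.15, Id2, an inhibitor of helix-loop-helix factors, by 1.10, and Zfp36l2 by 0.78. Klf10, Pim1 and Id2 were thus called lower with both conazoles, against the same controls. At day 30, 1 rose and 3 fell with propiconazole (9.52% against 10.8%), and 2 rose and 0 fell with triadimefon (4.76% against 5.40%). Fosb was called higher with both, at means of 6.11 and 5.92 against 5.03, all below background, so no fold is given. With propiconazole Nfil3 fell by 1.39 and Pim1 by 1.07, and Arc was called lower below background (4.27 against 5.28). With triadimefon Mcl1 rose by 0.47. Phenobarbital gave 1 call at day 4, or 2.38% against 0.677%: Errfi1, a feedback inhibitor of EGF receptor signalling, which fell by 0.79 ± 0.17 (limma adjusted p 0.017), and 0 at day 30, where 0.479% of all genes were called. The median change of the list ran from -0.18 to 0.15 over the 6 comparisons.

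Upstream, 21 of 29 genes of the SRF, ETS, CREB and MAP kinase list were measured. With propiconazole at day 4, 2 rose and 4 fell, or 28.6% against 13.9% of all genes: Map2k1, the MAP kinase kinase MEK1, rose by 0.87 ± 0.12 (limma adjusted p 3.1e-05) and the adaptor Grb2 by 0.34, and Nras fell by 0.59 and Elk4 by 0.44. The CREB coactivator Crtc2 (4.35 against 6.01) and Elk1 (4.03 against 5.09) were called lower at means below background, so no fold is given. Without propiconazole day 4 replicate 2, Grb2 (limma adjusted p 0.18), Nras (0.51) and Elk4 (0.053) were no longer called. The count was then 1 up and 3 down, where 9.41% of all genes were called. At day 30, 1 rose and 4 fell (23.8% against 10.8%), with Map2k1 up by 0.56 and Srf, serum response factor itself, down by 1.10 ± 0.23 (limma adjusted p 0.0017), Map2k2 by 0.43 and Mapk14 by 0.30, and Elk1 called lower below background. With triadimefon 1 rose and 2 fell at day 4 (14.3% against 3.75%), where Map2k1 rose by 0.62, Elk3 fell by 0.60 and Elk1 was called lower below background, and 0 rose and 2 fell at day 30 (9.52% against 5.40%), where Elk4 fell by 0.59 and Map2k2 by 0.43. Map2k1 was itself higher in day 30 than in day 4 controls, by 0.57. Phenobarbital gave 0 calls in this list at both days.

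Among 16 MAP kinase phosphatases and feedback inhibitors, Spry4, an inhibitor of growth factor signalling, was called lower in the same 3 comparisons as Nab2: it fell by 0.92 ± 0.23 with propiconazole (limma adjusted p 0.0079) and by 1.43 ± 0.23 with triadimefon (limma adjusted p 0.00071) at day 4, and by 1.21 ± 0.23 between control days (limma adjusted p 0.0016). All 3 comparisons use the same day 4 conazole control arrays, so they are not separate results. The triadimefon arrays of day 4 were all below background for Spry4, for a fall of at least 1.89-fold. Without propiconazole day 4 replicate 2, Spry4 was no longer called with propiconazole (-0.77, limma adjusted p 0.050), while Nab2 was. Spry1 rose by 1.0 with propiconazole at day 30, and Dusp8 rose by 0.84 with phenobarbital at day 4, from 4.24 to 5.08, both below background. In each treated comparison with a call in this list it was 1 gene, or 6.25%. Of all genes, 13.9% and 10.8% were called with propiconazole at day 4 and day 30. At day 4, 3.75% were called with triadimefon and 0.677% with phenobarbital. Of 13 genes of the Myc network, 15.4% and 23.1% were called with propiconazole at day 4 and day 30, against 13.9% and 10.8% of all genes. With triadimefon it was 7.69% on both days, against 3.75% and 5.40%. Max, the obligate partner of Myc, rose by 1.03 with propiconazole and 1.16 with triadimefon at day 30. The Myc antagonist Mxi1 fell by 0.84 at day 4 and 0.82 at day 30 with propiconazole, the first no longer called without replicate 2 (-0.52, limma adjusted p 0.089). Mycl rose by 0.82 with propiconazole at day 30. Mlxip was called lower below background with propiconazole at day 4, but not without replicate 2 (limma adjusted p 0.41). Mnt fell at least 1.33-fold with triadimefon at day 4. Max and Mnt also differed between conazole control days, by 0.87 and -1.94. Of 15 known Myc targets, 5 rose and 1 fell with propiconazole at day 4, or 40.0% against 13.9% of all genes. Without replicate 2 the counts were again 5 and 1, where 9.41% of all genes were called. In the fit on all arrays Srm (spermidine synthase) rose by 1.44 ± 0.22 and Nop56, a ribosome assembly factor, by 1.20. Ldha fell by 0.57. With triadimefon at day 4, 2 rose (Srm by 1.03 and Ddx18 by 0.47) and Ldha fell by 0.60 (20% against 3.75% of all genes). Ddx18 was also higher in day 30 than in day 4 conazole controls, by 0.46. At day 30 the counts were 0 up and 1 down with propiconazole (6.67% against 10.8%) and 0 and 0 with triadimefon (0% against 5.40%).

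The lists for AU-rich mRNA decay, the clock and the glucocorticoid response were small, so each share rests on few genes. With propiconazole the shares called were 18.2%, 12.5% and 20% at day 4, against 13.9% of all genes. At day 30 they were 9.09%, 12.5% and 10%, against 10.8%. With triadimefon they were 9.09%, 0% and 20% at day 4 against 3.75%, and 9.09%, 0% and 10% at day 30 against 5.40%. Phenobarbital gave 0 calls in these lists. Of 11 genes of AU-rich mRNA decay, 1 rose (Tial1, by 0.61, not called without replicate 2, limma adjusted p 0.23) and 1 fell (Parn, by 0.34) with propiconazole at day 4, Zfp36l2 fell with triadimefon at day 4, and Xrn1, the cytoplasmic exonuclease, rose at day 30 with propiconazole (0.95) and triadimefon (0.84). Of 16 clock genes, Cry2 (-1.57, and -0.86 without replicate 2) and Hlf (-1.14) fell with propiconazole at day 4 and Arntl (-1.12) and Hlf (-0.97) at day 30. With triadimefon or phenobarbital 0 were called. The summed normalized intensity of the 16 at day 4 was 2370 to 3430 with propiconazole and 2060 to 2630 with triadimefon, against 3390 to 4460 in the controls. In the conazole controls of day 30 it was 2180 to 2520. Of 10 glucocorticoid-responsive genes, Sgk1 rose at day 4 with propiconazole (1.77) and triadimefon (1.07), and Zbtb16 fell with both (-1.23 and -1.48). Zbtb16 also differed between conazole control days, by -1.48 from day 4 to day 30. Lcn2, which inflammation also induces, rose at day 30 with both from below background to means of 10.34 and 10.99, at least 18.4-fold and 29.0-fold.

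Markers of other liver cell types moved in some of the same groups. With triadimefon at day 30, where Klf6 was called, 5 of 12 Kupffer cell and macrophage markers rose, or 41.7% against 5.40% of all genes. The summed normalized intensity of the 12 was 5630 to 17200, against 4910 to 5940 in the controls. In the propiconazole group of that day the sum was 5600 to 9840 with 0 called, against 10.8% of all genes. Of 7 neutrophil and monocyte markers, only S100a8 was called, or 14.3%, with propiconazole on both days and with triadimefon at day 30. Of all genes, 13.9%, 10.8% and 5.40% were called there. S100a8 was below background in the controls. By group means it was at least 15.9-fold higher with propiconazole at day 4, 13.4-fold at day 30 and 17.7-fold with triadimefon at day 30. With propiconazole at day 30 it was above background on 2 of 3 arrays. Without propiconazole day 4 replicate 2 its day 4 rise was no longer called (limma adjusted p 0.13). The summed neutrophil and monocyte intensity was 590 to 6920 in the propiconazole day 4 group against 382 to 574 in its controls. At day 30 it was 388 to 4930 with propiconazole and 1770 to 2370 with triadimefon, against 430 to 532. Sinusoidal endothelial markers, 9 measured, summed to 1710 to 2620 with triadimefon at day 4 against 2230 to 4280. Stab2 and Clec4g were called lower there (22.2% against 3.75% of all genes). With triadimefon at day 30 the sum was 3430 to 4000 against 3900 to 4070, and Lyve1 and Cdh5 were called higher (22.2% against 5.40%). Stellate and fibroblast markers summed to 1960 to 4300 with propiconazole at day 4 against 3310 to 4950. Reln was called lower among 10, or 10% against 13.9% of all genes, but not without replicate 2 (limma adjusted p 0.081). At day 30 these 10 markers summed to 3320 to 3700 with propiconazole and 3540 to 4190 with triadimefon, against 4680 to 6950. Lrat and Des were called lower with propiconazole, or 20% against 10.8% of all genes. With triadimefon 0 were called, against 5.40%. Lrat was below background on all 3 propiconazole arrays, for a fall of at least 1.67-fold. Des was called at means of 4.10 against 5.93, both below background, so no fold is given. Hepatocyte markers summed to 59200 to 64700 with propiconazole and 59600 to 62300 with triadimefon at day 4, against 60700 to 61800, with 0 of 7 called. Biliary markers, 5 measured, summed to 495 to 578 with propiconazole and 496 to 678 with triadimefon at day 4 against 346 to 410, and to 721 to 824 with propiconazole at day 30 against 447 to 589, with no overlap. Among them Sox9 was called higher in these 3 comparisons and with phenobarbital at day 4, and Epcam with propiconazole on both days. That was 40% of the list with propiconazole, against 13.9% and 10.8% of all genes at day 4 and day 30. It was 20% with triadimefon and phenobarbital at day 4, against 3.75% and 0.677%. Epcam was also higher in day 30 than in day 4 conazole controls, by 0.39. Sox9 with propiconazole at day 4 was not called without replicate 2 (limma adjusted p 0.090). Lymphocyte and erythroid lists, of 8 and 4 genes measured, had at most 1 call in any of the 6 comparisons. With triadimefon at day 30 that was 12.5% and 25%, against 5.40% of all genes. With propiconazole at day 4 it was 25% of the erythroid list, against 13.9%, and 0 without replicate 2. The part of any of these cell types in the changes of the immediate early genes was not tested.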

How the data were processed

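The deposited table holds intensities of 45101 probe sets on 38 arrays, on a linear scale with 21.15% of values below 0; the software and scaling that made them are not given in the sources used here, and per the labels' protocols the RNA was amplified, biotin-labelled and hybridised to Affymetrix mouse 430 2.0 arrays. The precision of each value is limited by the number of arrays, 3 or 5 in a group.

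Intensities were quantile normalized over the 38 arrays, set to 0 where below 0 and taken as log2(value + 16). Probe sets with 1 symbol in the platform annotation (34958; 932 had several symbols and 9211 were not listed) were kept, and the one with the highest mean stood for each of 18194 genes; 465 that did not vary were left out. Limma 3.58.1 (lmFit, contrasts.fit, eBayes with trend) in R 4.3.3 was fitted with 1 mean per group over all arrays (28 residual degrees of freedom), two-sided, in 17 comparisons, with Benjamini-Hochberg adjustment over 17729 genes. The test was tried on simulated data first. Where a group lay wholly below background, the background stood in for its level ("at least N-fold").

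The members and gene lists were chosen with earlier results of these data known. All members are named. From the other lists up to 3 called rises and 3 called falls per comparison were to be named, and further ones are named where few were called, after their values were seen; the genes most like Egr1, Fos and Junb were the 5 with the highest r. The alternatives were 3 other scalings, 2 pseudocounts, the mean of probe sets, a filter on dim genes, other spread models, a replicate block and leaving out arrays. The tests of single probe sets, the counts of lists without the array with a 3′ excess and the direction splits by scaling were added after the data were seen. No 2 arrays were identical.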

Additional observations from a re-analysis of the deposited data

Results flagged for a closer look

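In 2 of the 40 sets of 5 arrays checked (10 genes in the 4 groups of the phenobarbital experiment), 1 array lay far from the others by Dixon's criterion, and chance alone gives about 5% of such sets. Both were on the same array, replicate 5 of the day 30 controls: Fos was 7.51 there, with the next array at 5.71, and Jun was 8.81, with the next at 7.52. By its second probe set Jun was also highest on that array, at 7.44. Groups of 3 arrays were too small for this check.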

How the results depend on the processing

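Over 2328 recomputed values, 2002 were counted as unchanged, 47 lost a call and 17 gained one. A further 260 moved: counts, values without a test, and changes of a member that turned direction without a call in either fit. Unchanged values kept direction and side of the threshold or stayed within 1.5 times. Single probe sets of a member not called were counted there even where their direction differed. An example is Klf6 with propiconazole at day 4, at -0.15 by 1 probe set against 0.38 by the chosen one. The 2 called changes that turned direction were those of Klf6 at day 30, at -0.06 with propiconazole and -0.04 with triadimefon by 1 of its other probe sets.

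At day 30 the number of members called, 1 with each conazole, was 0 with both under intensities as deposited, median scaling, quantile normalization within each experiment, a pseudocount of 64 and the replicate block. With propiconazole it was 3 at a pseudocount of 4, 0 with array weights and 2 without the array with the 3′ excess. In that last fit 15.8% of all genes were called. With triadimefon it was 0 with the mean of all probe sets, among genes above background only (where Klf6 was not tested) and in a fit on the arrays compared. At day 4 the counts of 4 and 2 became 0 and 0 on the arrays compared alone and 1 and 1 with array weights. Phenobarbital at day 30 went from 0 to 1 with array weights. The control days of the conazole experiment went from 1 to 0 with intensities as deposited, among genes above background (where Nab2 was not tested) and on the arrays compared. Leaving out 1 array at a time gave 4 to 6 and 0 to 1 calls with propiconazole at day 4 and day 30, 1 to 3 and 0 to 1 with triadimefon, 0 to 0 with phenobarbital at both days and 1 to 2 between conazole control days; for propiconazole against triadimefon at day 4, and for the day 30 minus day 4 change of each conazole, it gave 0 to 1, and for the propiconazole change minus the phenobarbital change at day 4 0 to 2. Egr1 with triadimefon at day 4 lost its call without control replicate 1, control replicate 3 or triadimefon replicate 1, and Ier2 with propiconazole without replicate 2. Myc gained a call at day 4 without replicate 3 of either conazole group, at 2.26 and 2.68. Apart from the cases whose construction is named, the cause was not tested.

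With intensities as deposited, the median of all genes shifted by -0.16 with propiconazole and 0.17 with triadimefon at day 4. Replicate numbers did not pair arrays: same-numbered arrays had correlations of their deviations from -0.11 to 0.16 over 45 pairs in the conazole experiment and from -0.11 to 0.17 over 30 in the other. With the number as a replicate block, 4 and 2 members were called at day 4 and 0 at day 30 with the conazoles. Without the array with the 3′ excess, 5 further immediate early genes were called with triadimefon at day 30 in place of 2. Of all genes, 9.64% were called there in place of 5.40%. Between conazole control days it was 4 in place of 2, and 9.18% of all genes in place of 5.32%. Signal over background limits Fos and Ier3 in all groups and Nab2, Klf6 and Myc in part of them.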
